A study of Mus musculus with 32 samples.

Results

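The genes described here are 10 genes of the p53 pathway, Trp53 itself and 9 of its known target genes (Mdm2, Ccng1, Eda2r, Phlda3, Zmat3, Trp53inp1, Sesn2, Bbc3 and Aen), chosen by symbol from the 32285 genes of a count table of whole mouse bladders. All 10 were found and all 10 had enough counts to be tested in each comparison. RNA sequencing was done on 32 whole bladders of female C57BL/6 mice, with 1 bladder per library. The untreated mice were of 3 ages. The 6 young mice were 2 months old, the 5 middle-aged mice 10 months and the 6 old mice 26 months. Other old mice were gavaged on 3 consecutive days of each month from 21 to 26 months of age with water (n = 5), with vehicle, a mixture of ethanol (10%), polyethylene glycol 400 (30%) and Phosal 50 PG (60%) (n = 4), or with dasatinib at 5 mg/kg/day plus quercetin at 50 mg/kg/day (D + Q), a drug pair used to remove senescent cells (n = 6). The labels name no transgene or deletion, and the study compared the bladder across age and asked what intermittent D + Q does to it. Nothing in the labels names a sequencing batch, so within-batch values could not be computed.

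The p53 protein is a transcription factor that is stabilised when DNA is damaged or a cell is stressed, and that then switches on genes for cell cycle arrest, DNA repair, metabolism and cell death. Mdm2, one of its targets, marks p53 for degradation, which closes a feedback loop. Much of the control of p53 lies in protein stability, so the level of Trp53 RNA is not a measure of p53 activity, and the RNA of its targets is more often read for that purpose. The pathway is 1 of the routes into cellular senescence, the lasting growth arrest that D + Q is meant to act on.

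Most of these genes held a narrow level across age and treatment. Between the lowest and the highest of the 32 bladders, Mdm2 differed 1.21-fold, Trp53 1.21-fold, Zmat3 1.28-fold, Sesn2 1.35-fold, Aen 1.39-fold and Phlda3 1.45-fold in CPM, the counts scaled to library size with TMM factors. Ccng1 was 1.23-fold higher in untreated old than in young bladders and 1.08-fold higher than in middle-aged bladders. The latter call was lost without 1 of the middle-aged bladders and in some other fits. Trp53inp1 also rose between young and untreated old bladders, a call kept in 6 of the 12 fits that each left out 1 bladder. These 2 members were called there beside 25.1% of all genes tested, and Ccng1 against middle-aged bladders beside 24.0%. No member passed the test in any comparison of D + Q-treated bladders. Against the other groups of old mice no gene at all passed (0%), and against middle-aged bladders 12.1% of all genes tested did.

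p53 binds DNA as a tetramer, and its site is a pair of decamers, each called a p53 half-site. The RefSeq promoter windows (GRCm38.p6, 250 bases before to 50 bases after a transcript start) held 8 of the 10 members in 11 windows. Zmat3 and Trp53inp1 had none. The p53 half-site consensus, which reads the same on both strands, was searched without mismatches. It was found in the windows of 4 of these 8 members (Ccng1, Mdm2, Trp53 and Aen) and in 9.55% of all 27025 genes with a window. A pair of half-sites with a gap of at most 13 bases and at most 1 mismatch over both was found for Ccng1 alone among the 8, against 0.718% of all genes (194 genes). The matched stretches are shown because Ccng1 is 1 of the 2 members called between young and untreated old bladders, where 25.1% of all genes were. The other, Trp53inp1, has no window. The remaining 3 genes shown carry a half-site without a partner in the window. Each is written 5′ to 3′ on the strand of its gene with 10 flanking bases on either side, and the capitals mark the matched bases.
Ccng1 (chr11:40755452-40755491, minus strand): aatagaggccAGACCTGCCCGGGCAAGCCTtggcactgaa
Mdm2 (chr10:117710925-117710954, minus strand): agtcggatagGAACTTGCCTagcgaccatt
Trp53 (chr11:69580274-69580303, plus strand): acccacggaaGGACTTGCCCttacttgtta
Aen (chr7:78895927-78895956, plus strand): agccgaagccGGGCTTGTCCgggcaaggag
The 20 capital bases of Ccng1 are 2 adjoining half-sites with no gap and 1 mismatch, and lie 195 to 176 bases before the RefSeq start. The wider upstream stretch of Ccng1, 250 to 101 bases before the start (chr11:40755387-40755536, minus strand), reads as follows.
Ccng1 upstream: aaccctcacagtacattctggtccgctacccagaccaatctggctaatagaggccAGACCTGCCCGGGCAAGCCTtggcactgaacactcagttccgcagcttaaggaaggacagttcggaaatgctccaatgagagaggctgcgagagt
The half-site of Mdm2 lies 186 to 177 bases before its start and that of Trp53 75 to 66 bases before. That of Aen lies at bases 11 to 20 after 1 of its starts and 121 to 112 bases before the other. These matches are letters in a window and were not tested for binding. No half-site without mismatch was in the windows of Eda2r, Phlda3, Sesn2 or Bbc3. Sequence outside the windows was not searched, so a site elsewhere in or near any of the 10 genes would be missed.

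Total counts per bladder were 15088372 to 52650259, and a gene with 3 counts, the floor used here, stood at 0.0570 to 0.199 CPM. The floor covers counting error only. The defining markers of the labelled tissue were present in every bladder, with a summed level of 4232 to 5644 CPM over 8 urothelial genes. The levels of cell type markers differed between the ages. Markers of B cells (5 genes) summed to a median of 4.15 CPM in middle-aged bladders and 111 CPM in untreated old bladders, with all 5 genes above every middle-aged bladder in each of them, and the medians for 5 T cell markers were 9.35 and 41.6 CPM. The young bladders had a median of 19413 CPM summed over 6 fibroblast markers, and the middle-aged bladders 10568 CPM. Of these 6 genes, 3 were above every middle-aged bladder in each young bladder. Vehicle-treated replicate 1 stood apart, at -25.0 on the first principal component (41.2% of the variance), nearer to the middle-aged bladders (-45.9 to -27.9) than to the other 3 vehicle-treated bladders (28.5 to 51.6). It had 10.3 CPM of T cell and 9.54 CPM of proliferation markers. Its B cell markers summed to 37.8 CPM, above the 3.88 to 10.6 CPM of the middle-aged bladders. Some results on vehicle-treated mice, mainly those of Ccng1 and Eda2r, are therefore also given without it, and the rest include it. In whole bladders, fewer cells of a type and less RNA per cell cannot be told apart.

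Levels of different genes are compared in TPM, which scales counts to the summed exon length of a gene and to the library. Phlda3, a protein that restrains Akt at the membrane, had the highest median over the 32 bladders at 171 TPM (127 to 197). Ccng1, cyclin G1, followed at 162 TPM (115 to 185), and the ranges of the pair overlapped. Trp53 stood at 61.5 TPM (55.4 to 65.7), above every value of Mdm2, whose median was 48.9 TPM (42.0 to 54.2). Trp53inp1, a stress-induced nuclear protein that acts in cell death and autophagy, had a median of 38.5 TPM and, as a fold, the widest range, 10.6 to 61.4 TPM, which overlapped that of Mdm2. Sesn2, a sestrin that restrains mTORC1, stood at 26.3 TPM (23.3 to 29.9) and overlapped Aen, a nuclease of apoptotic cells, at 24.3 TPM (19.5 to 28.2). Zmat3, an RNA-binding zinc finger protein, stood at 16.2 TPM (13.7 to 18.0) and overlapped Bbc3, which encodes the BH3-only death protein Puma, at 11.6 TPM (9.27 to 14.5). Eda2r, a death-domain receptor for ectodysplasin A2, was the lowest at 4.20 TPM (1.93 to 8.76), below every value of Bbc3. The 10 medians lay between the 29.8th and the 95.6th percentile of the genes tested.

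The members also differed in how much bladders of the same group varied. The pooled SD within groups, on the log2(CPM + 0.1) scale, was 0.0651 for Mdm2, 0.0790 for Trp53, 0.0963 for Sesn2, 0.0969 for Ccng1 and 0.0976 for Zmat3, against a median of 0.161 over all genes tested. Only 4.70% of genes tested had a smaller SD than Mdm2. Aen (0.131), Phlda3 (0.137) and Bbc3 (0.148) also lay under the median. Eda2r (0.371) and Trp53inp1 (0.415) lay above it, and 81.4% of the genes tested had a smaller SD than Trp53inp1. The plot of members by bladder shows this contrast on a CPM axis that starts at 0.

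**Figure D1:**
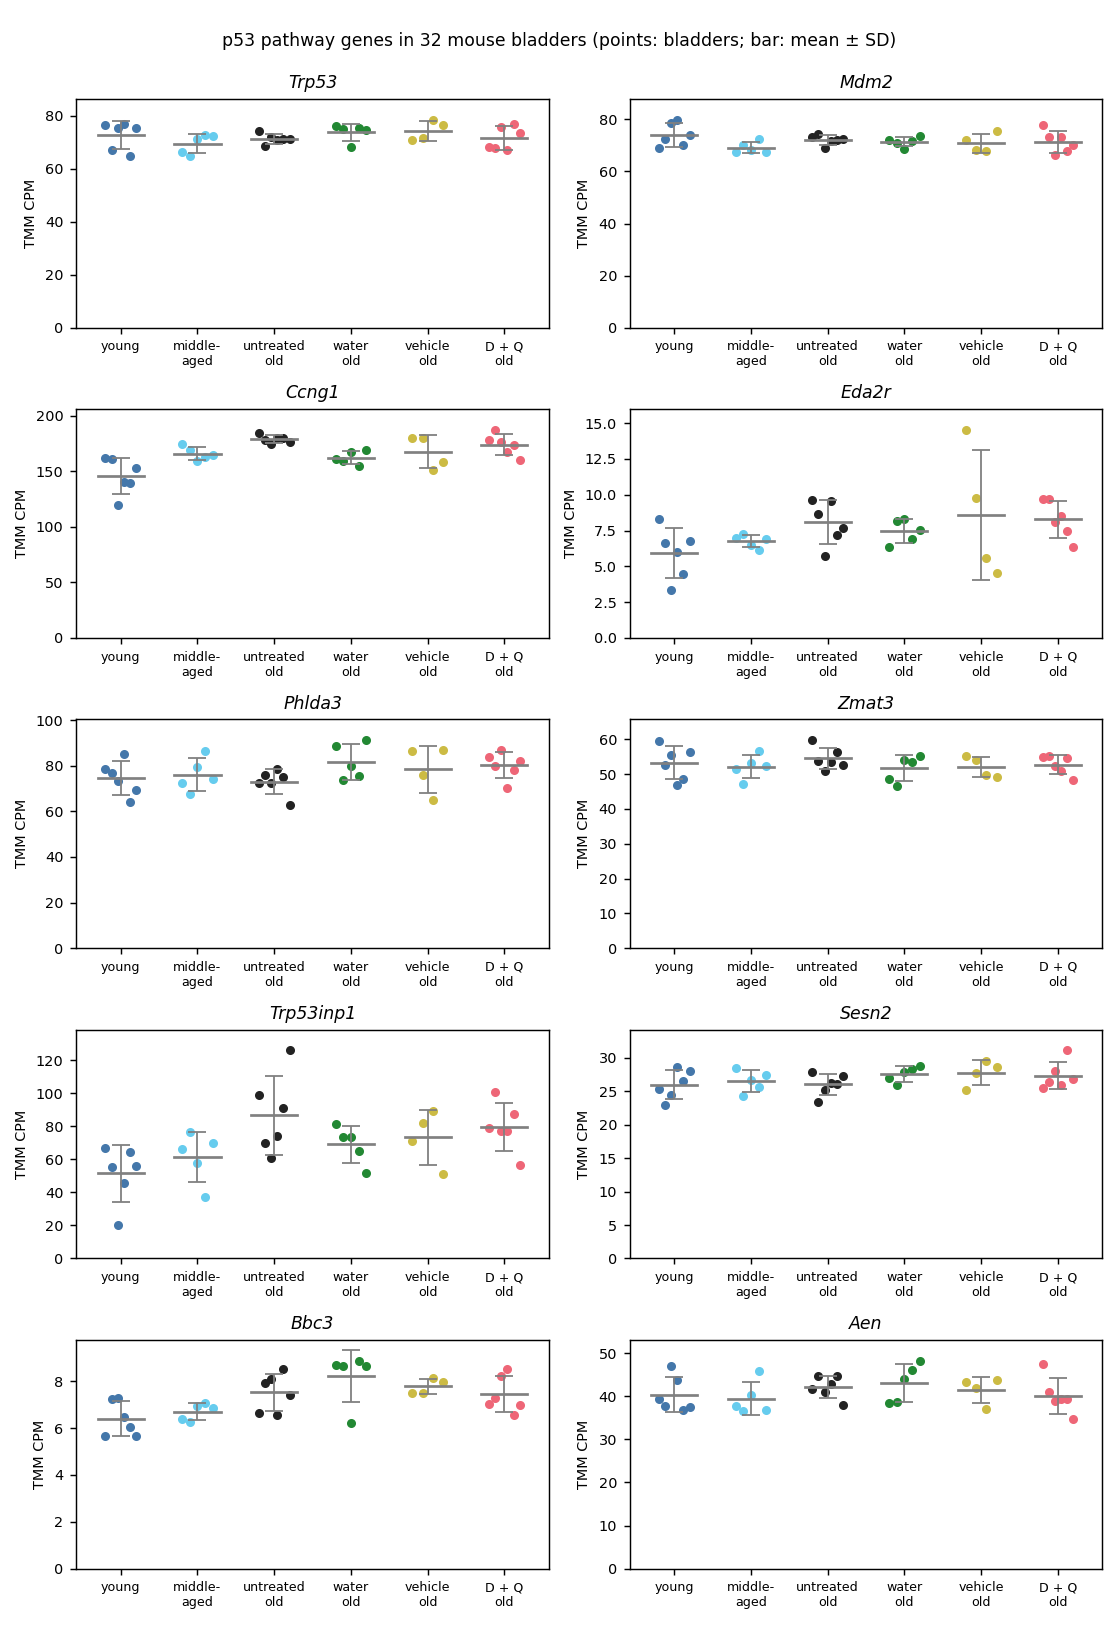
TMM-normalised CPM of the 10 genes (y axis of each panel, from 0) in the 32 bladders by group (x axis). Each point is 1 bladder and the grey bars are the mean and SD of the group. The 6 untreated old bladders lie narrowly above all 5 middle-aged bladders for Ccng1 (lowest untreated old 174.7 CPM, highest middle-aged 174.4 CPM). Of the genes tested, 14.6% did not overlap between these 2 groups. Eda2r and Trp53inp1 scatter widely within groups, whereas Trp53, Mdm2, Zmat3 and Sesn2 stay close to 1 level.

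Ccng1 (ENSMUSG00000020326, chromosome 11 of mm10, 40748552 to 40755311, minus strand) encodes cyclin G1, a p53 target that recruits a phosphatase to Mdm2. In young bladders it ranged from 119 to 162 CPM with a median of 147 CPM (mean 146 ± 16.2, SD, n = 6). The middle-aged bladders had 174, 169, 159, 163 and 165 CPM (166 ± 5.87, SD, n = 5). The 6 untreated old bladders ranged from 175 to 185 CPM with a median of 179 CPM (179 ± 3.54, SD, n = 6). Every untreated old bladder was thus above every middle-aged and every young bladder, though the lowest old value (174.7 CPM) was close to the highest middle-aged value (174.4 CPM). Of the genes tested, 14.6% did not overlap between the untreated old and the middle-aged groups, and 12.7% did not between the untreated old and the young groups.

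In untreated old against middle-aged bladders, Ccng1 was the only 1 of the 10 members that passed the test (adjusted p under 0.05, edgeR's quasi-likelihood test with Benjamini-Hochberg adjustment over all genes), beside 24.0% of the 17156 genes tested. Its log2 fold change was 0.11 (SE 0.0285, 95% CI 0.047 to 0.17, edgeR adjusted p = 0.0147). The call was lost without middle-aged replicate 3, the lowest of its group (log2 fold change 0.0891, edgeR adjusted p = 0.0565), with all 6 groups in a single fit (0.11, edgeR adjusted p = 0.23) and with limma on the deposited normalised table (0.0621, adjusted p = 0.31). With limma the median log2 fold change of all genes tested was -0.0519. The log2 fold change of Ccng1 stayed above 0 under every alternative tried. The B cell and T cell markers given above rose between the same groups, and their part in this difference was not tested.

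The other 9 members did not pass between untreated old and middle-aged bladders. Trp53inp1 had the largest log2 fold change of the 10, 0.50 (SE 0.201, CI 0.064 to 0.94, edgeR adjusted p = 0.092). For Eda2r it was 0.26 (SE 0.123, edgeR adjusted p = 0.154), which passed without untreated old replicate 3 (0.34, edgeR adjusted p = 0.0246), and for Bbc3 0.17 (SE 0.081, edgeR adjusted p = 0.159). Aen had 0.0955 (SE 0.0627, edgeR adjusted p = 0.302) and passed without middle-aged replicate 4 (0.15, edgeR adjusted p = 0.0469). The intervals of the remaining members were narrow. They ran from -0.044 to 0.11 on the log2 scale for Trp53, from -0.003 to 0.12 for Mdm2, from -0.20 to 0.079 for Phlda3, from -0.044 to 0.17 for Zmat3 and from -0.14 to 0.09 for Sesn2. In folds, these 5 intervals together ran from 0.868 (Phlda3) to 1.12 (Zmat3). The median log2 fold change of the 10 was 0.079, and that of all genes tested was -0.0047.

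Over the longer span from young to untreated old bladders, 2 of the 10 members passed, both higher, where 25.1% of 16873 genes tested were called. Ccng1 rose by a log2 fold change of 0.30 (SE 0.0642, CI 0.16 to 0.43, edgeR adjusted p = 0.00426). It stayed called whichever single bladder was left out (0.24 to 0.33). The lowest Ccng1 value of all bladders, 119 CPM, was in young replicate 3, which also had the lowest total count, 15088372. Without that bladder the log2 fold change was 0.24 (edgeR adjusted p = 0.00241).

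Trp53inp1 (ENSMUSG00000028211, chromosome 4, 11156431 to 11174379, plus strand) was the other. Its level in young bladders ranged from 20.2 to 66.8 CPM with a median of 55.9 CPM (51.5 ± 17.0, SD, n = 6). The middle-aged bladders had 66.4, 76.5, 57.7, 37.1 and 69.8 CPM (61.5 ± 15.2, SD, n = 5). The 6 untreated old bladders ranged from 60.8 to 126 CPM with a median of 82.4 CPM (86.8 ± 23.8, SD, n = 6). The young and untreated old bladders overlapped. The lowest value, 20.2 CPM, was in young replicate 3, the bladder with the lowest total count. The log2 fold change between young and untreated old bladders was 0.75 (SE 0.241, CI 0.23 to 1.26, edgeR adjusted p = 0.0363). It ran from 0.59 to 0.83 over the 12 fits that each left out 1 bladder. The call was lost without young replicate 2, 4 or 6 or untreated old replicate 1, 5 or 6, with edgeR adjusted p from 0.0501 to 0.0842 and log2 fold changes from 0.61 to 0.77.

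Between young and untreated old bladders, Eda2r (ENSMUSG00000034457, chromosome X, 97333840 to 97377216, minus strand) had a log2 fold change of 0.44 (SE 0.193, edgeR adjusted p = 0.118). It ranged from 3.34 to 8.30 CPM with a median of 6.33 CPM in young bladders. The 5 middle-aged bladders had 6.98, 7.23, 6.52, 6.13 and 6.92 CPM. In untreated old bladders it ranged from 5.70 to 9.64 CPM with a median of 8.17 CPM, so that the 3 groups overlapped. Bbc3 (ENSMUSG00000002083, chromosome 7, 16308393 to 16318205, plus strand) had a log2 fold change of 0.24 (SE 0.0991, edgeR adjusted p = 0.1), from 6.40 ± 0.731 CPM in the 6 young to 7.52 ± 0.795 CPM in the 6 untreated old bladders (mean ± SD). The other 6 members lay between -0.033 (Mdm2) and 0.0688 (Aen) on the log2 scale, with Trp53 at -0.027, Phlda3 at -0.029, Zmat3 at 0.0334 and Sesn2 at 0.0031.

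From young to middle-aged bladders no member passed, while 10.8% of 16754 genes tested were called. Ccng1 alone reached an unadjusted p under 0.05, with a log2 fold change of 0.20 (SE 0.07, edgeR adjusted p = 0.0875), and DESeq2 also called none of the 10. It passed when all 6 groups entered a single fit (0.19, edgeR adjusted p = 0.0258). The log2 fold changes of Trp53inp1 (0.26, SE 0.245) and Eda2r (0.19, SE 0.176) were about as large as their errors. The other 7 were -0.052 for Trp53, -0.084 for Mdm2, 0.0427 for Phlda3, -0.019 for Zmat3, 0.039 for Sesn2, 0.0801 for Bbc3 and -0.0166 for Aen. Fibroblast markers fell between these groups, as given above, and their part in the values of the members was not tested.

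Whether the change after middle age differed from the change before it was tested in a fit of the 3 ages, as the late minus the early log2 change. For none of the 10 members did the 2 changes differ at an edgeR adjusted p under 0.05, while 10.8% of 17376 genes tested did. DESeq2 also called none. Mdm2 was the 1 member at an unadjusted p under 0.05, and its late minus early change was 0.16 (SE 0.0701, edgeR adjusted p = 0.141). For Ccng1 it was -0.0676 (CI -0.29 to 0.16) and for Trp53inp1 0.27 (CI -0.64 to 1.17). For Eda2r it was 0.0856 (CI -0.57 to 0.74).

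**Figure D2:**
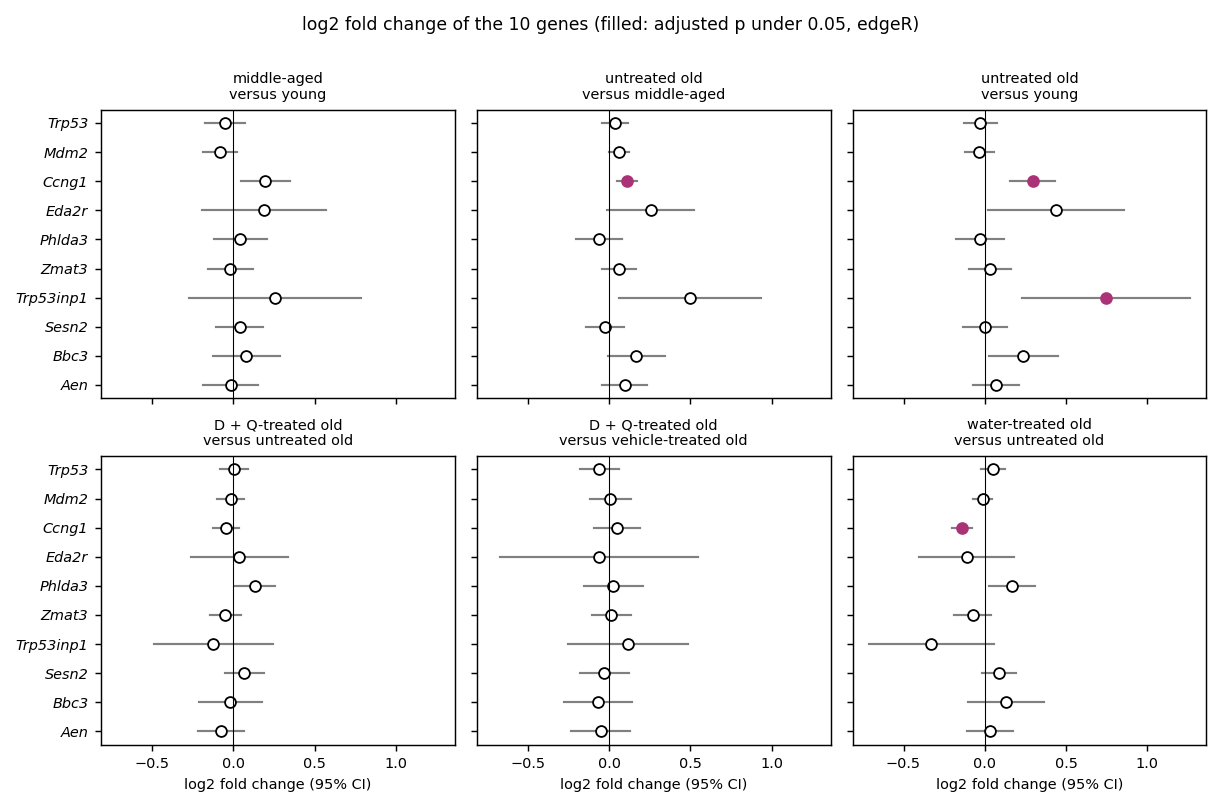
log2 fold change (x axis) of each of the 10 genes (y axis) in 6 comparisons, with lines for the 95% confidence interval and filled points for an edgeR adjusted p under 0.05. Ccng1 is filled in both comparisons of untreated old with younger bladders and, below 0, in water-treated against untreated old bladders. Trp53inp1 is filled in untreated old against young bladders, and no point is filled in the 2 comparisons of D + Q-treated bladders.

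Old mice given D + Q were compared with untreated, vehicle-treated and water-treated old mice. Ccng1 ranged from 160 to 187 CPM with a median of 175 CPM in D + Q-treated bladders (174 ± 9.36, SD, n = 6). The 4 vehicle-treated bladders had 180, 180, 151 and 159 CPM, and the 5 water-treated bladders 161, 160, 167, 155 and 169 CPM. The D + Q-treated bladders overlapped all 3 other groups of old mice. Trp53inp1 ranged from 56.4 to 101 CPM with a median of 78.4 CPM in D + Q-treated bladders and was 71.1, 81.9, 89.3 and 51.1 CPM in vehicle-treated bladders. Here too the groups overlapped.

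Against untreated old bladders, none of the 10 members was called in D + Q-treated bladders, and neither was any of the 17037 genes tested (0%), with 2200 genes at an unadjusted p under 0.05 and 185 called by DESeq2. DESeq2 called none of the members. Phlda3 alone reached an unadjusted p under 0.05, with a log2 fold change of 0.14 (SE 0.0573, edgeR adjusted p = 0.36). It was 72.9 ± 5.45 CPM in untreated old bladders (SD, n = 6) and 80.2 ± 5.72 CPM with D + Q (SD, n = 6). The others were 0.0056 for Trp53, -0.0156 for Mdm2, -0.0431 for Ccng1, 0.0381 for Eda2r, -0.0492 for Zmat3, -0.12 for Trp53inp1, 0.0686 for Sesn2, -0.0179 for Bbc3 and -0.0744 for Aen on the log2 scale. The 10 confidence intervals together ran from 0.712-fold to 1.26-fold, and both ends belonged to the most variable genes, Trp53inp1 and Eda2r.

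Against vehicle-treated bladders, which share the solvent and the gavage, none of the 10 members was called and none reached an unadjusted p under 0.05. None of the 17267 genes tested was called either (0%), with 722 at an unadjusted p under 0.05 and 11 called by DESeq2, none of them a member. The log2 fold change was 0.0501 for Ccng1 (CI -0.09 to 0.19), 0.12 for Trp53inp1 (CI -0.25 to 0.49) and -0.059 for Trp53 (CI -0.18 to 0.0584). It was 0.0083 for Mdm2, 0.0262 for Phlda3, 0.0138 for Zmat3, -0.0292 for Sesn2, -0.0683 for Bbc3 and -0.0506 for Aen. For Eda2r it was -0.0629, with the widest interval (-0.67 to 0.54). The vehicle-treated bladders had 14.5, 9.76, 5.60 and 4.57 CPM of Eda2r, and the highest was replicate 1, the bladder that stood apart. Without it the log2 fold change of Eda2r was 0.31 (edgeR adjusted p = 0.713), that of Ccng1 was 0.0861 (edgeR adjusted p = 0.739), and again no member passed.

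Against water-treated bladders no member was called in D + Q-treated bladders, and none of 17161 genes was (0%), with 1342 at an unadjusted p under 0.05 and 69 called by DESeq2, none of them a member. The log2 fold changes of the members ran from -0.15 to 0.20, with Ccng1 at 0.0947 (CI -0.0038 to 0.19), and 0 of the 10 reached an unadjusted p under 0.05.

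Ccng1 was lower in water-treated than in untreated old bladders. All 5 water-treated bladders (155 to 169 CPM) lay below all 6 untreated old bladders (175 to 185 CPM), and the groups did not overlap for 2.87% of the genes tested. Ccng1 was the 1 member of 10 that passed, beside 1.0% of 17250 genes, and it fell by 0.14 on the log2 scale (SE 0.0283, CI -0.20 to -0.0783, edgeR adjusted p = 0.0417). This call was not stable. It was lost without any single bladder of the 11 (log2 fold change -0.15 to -0.12), with no filter on low counts (edgeR adjusted p = 0.0799), with all 6 groups in a single fit (edgeR adjusted p = 0.452) and with limma on the deposited table (adjusted p = 0.224). The T cell markers had a median of 41.6 CPM in untreated and 22.5 CPM in water-treated old bladders, and the proliferation markers 39.0 and 23.3 CPM, with overlap between the groups in both. The medians of the B cell markers were alike, at 111 CPM in untreated and 112 CPM in water-treated old bladders. The part of these markers in the value of Ccng1 was not tested. Phlda3 (0.17, edgeR adjusted p = 0.244), Trp53inp1 (-0.33, edgeR adjusted p = 0.388) and Eda2r (-0.11, edgeR adjusted p = 0.728) did not pass. Against untreated old bladders, vehicle-treated bladders had no called member and no called gene of 17440 (0%), with 1464 genes at an unadjusted p under 0.05 and 132 called by DESeq2, none of them a member. There the log2 fold change was -0.0939 for Ccng1 and 0.10 for Eda2r, and without vehicle-treated replicate 1 it was -0.13 and -0.27.

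Each group of gavaged old mice was also set against the middle-aged mice, which these comparisons share. None of the 10 members passed in any of the 3. The share of all genes called was 13.3% for water-treated, 4.54% for vehicle-treated and 12.1% for D + Q-treated bladders, and DESeq2 called none of the members in any of them. The log2 fold change of Ccng1 was -0.0345 in water-treated, 0.0159 in vehicle-treated and 0.0555 in D + Q-treated bladders, while it was 0.11 in untreated old bladders. Without vehicle-treated replicate 1 the value for vehicle-treated bladders was -0.0246 and again no member passed. Bbc3 reached an unadjusted p under 0.05 in water-treated bladders (0.29, edgeR adjusted p = 0.0844) and in vehicle-treated bladders (0.22, edgeR adjusted p = 0.168). In D + Q-treated bladders it was Eda2r that did (0.28, edgeR adjusted p = 0.119), with 6.34 to 9.70 CPM and a median of 8.30 CPM. Eda2r passed there without D + Q-treated replicate 6 (0.36, edgeR adjusted p = 0.0213), and Trp53inp1 had a log2 fold change of 0.37 (edgeR adjusted p = 0.204).

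Whether the members moved together from bladder to bladder was examined after each value was set against its group mean, so that age and treatment were taken out. Over the 45 pairs of members and the 32 bladders, r was positive for 23 pairs and its median was 0.028. Pairs of genes outside the members were not examined in this way. Whether the relations below are particular to the members was therefore not tested. Ccng1 and Eda2r had the strongest relation. Pearson's r was 0.806 and Spearman's rho 0.801, with permutation p of 2e-05 and 1e-05, the latter the smallest that 100000 permutations within groups can give, and 0.0009 and 0.00045 after Benjamini-Hochberg adjustment over the 45 pairs. Both genes lay on the same side of their group means in 24 of the 32 bladders. Without the 2 bladders farthest from the median of Ccng1, r was 0.741, and without vehicle-treated replicate 1 it was 0.821. In the 17 untreated bladders of the 3 ages it was 0.844. Young replicate 3 was the lowest of the 32 bladders in Ccng1 and in Eda2r and also had the lowest total count, and the part of depth was not tested.

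**Figure D3:**
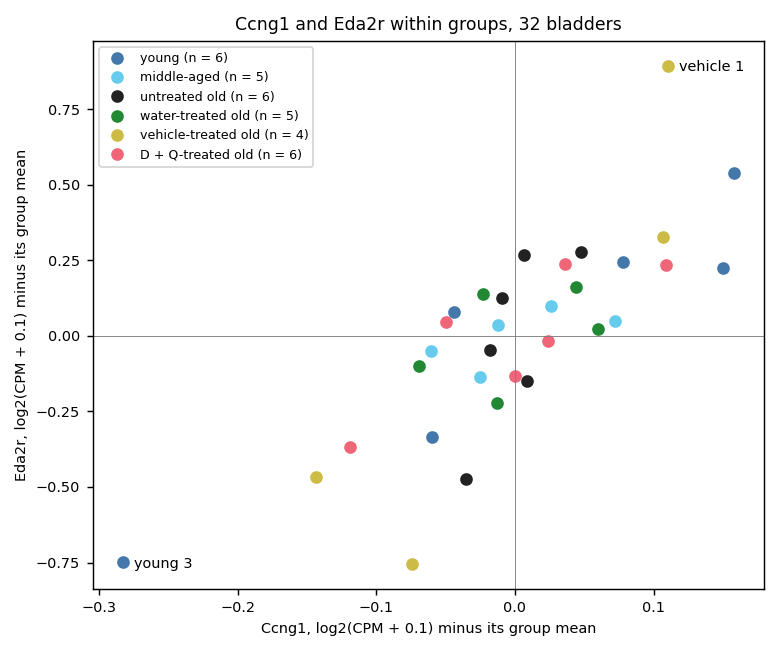
Deviation of Ccng1 (x axis) and of Eda2r (y axis) from the group mean, on the log2(CPM + 0.1) scale, for 32 bladders coloured by group. The points run from the lower left, where young replicate 3 lies, to the upper right, where vehicle-treated replicate 1 lies, with Pearson's r = 0.806.

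Aen took part in the 3 other pairs that passed both tests after adjustment. Its r was 0.614 with Mdm2 (permutation adjusted p = 0.0184, rho 0.57), 0.543 with Phlda3 (permutation adjusted p = 0.0411, rho 0.524) and -0.576 with Trp53inp1 (permutation adjusted p = 0.0273, rho -0.567). Without the 2 bladders farthest from the median of the first-named gene of each pair, r was 0.515 for Mdm2, 0.471 for Phlda3 and -0.394 for Trp53inp1. Without vehicle-treated replicate 1 the 3 no longer passed both tests, with r of 0.610, 0.535 and -0.579, and in the untreated bladders of the 3 ages the pair of Aen and Trp53inp1 did (-0.821). Trp53 RNA was in no pair that passed both tests. Its strongest relation was with Sesn2, with r of 0.505 (permutation adjusted p = 0.0781) and rho of 0.514 (permutation adjusted p = 0.0492). It was 1 of 4 pairs that passed on ranks alone, beside Ccng1 with Zmat3, Eda2r with Bbc3 and Phlda3 with Trp53inp1.

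Over all 32 bladders, with group differences left in, the gene outside the 10 whose level was most like that of each member was named by Pearson's r on the log2(CPM + 0.1) scale. It was Ttll7 for Ccng1 (r = 0.886), Cep85l for Trp53inp1 (0.883), Gm10603 for Eda2r (0.810) and Prkcq for Bbc3 (0.802). For Trp53 it was Gtf2f1 (0.786), for Aen Rin1 (0.761), for Phlda3 Cyb5r3 (0.735) and for Zmat3 Eogt (0.721). Mdm2 was most like Zfp36 (0.691) and Sesn2 most like Sars (0.664). These are the highest values over all genes tested, in libraries that share a tissue and differ in depth, and carry no test.

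A further 46 genes of the pathway were listed by role, and all 46 were matched. From young to middle-aged bladders 6 of the 45 tested were called, 4 higher and 2 lower (10.8% of all genes). Ckap2, a mitotic spindle protein, fell by 1.70 on the log2 scale (SE 0.411, edgeR adjusted p = 0.0218), from 3.21 ± 1.94 CPM (SD, n = 6) to 1.0 ± 0.381 CPM (SD, n = 5), and 5 proliferation markers had medians of 26.4 and 11.2 CPM in these groups. Dram1, a lysosomal regulator of autophagy, fell by 0.61 (SE 0.132, edgeR adjusted p = 0.0132). Cdkn1a, the cell cycle inhibitor p21, rose by 0.36 (SE 0.0974, edgeR adjusted p = 0.032) and Cd82, a tetraspanin, by 0.34 (SE 0.088, edgeR adjusted p = 0.0278). Ephx1, a microsomal epoxide hydrolase, rose by 0.49 (SE 0.148), a call lost with RLE factors (edgeR adjusted p = 0.0523), and Trp53bp1, a DNA double-strand break protein, by 0.19 (SE 0.0454, edgeR adjusted p = 0.0208). Of the 11 fits that each left out 1 bladder, Ephx1 was called only without young replicate 4. Cdkn1a was called only without young replicate 3, 4 or 5 or middle-aged replicate 4, and Cd82 only without young replicate 1, 3, 4 or 5. Ckap2 lost its call without middle-aged replicate 1, 3 or 5 and Trp53bp1 without middle-aged replicate 2 or 5, while Dram1 was called in all 11. The count moved to 10 without young replicate 5, to 3 without young replicate 6, to 2 without middle-aged replicate 1, 2 or 3 and to 1, Dram1, without middle-aged replicate 5.

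From middle-aged to untreated old bladders 10 of the 46 were called, 7 higher and 3 lower (24.0% of all genes). Of the 10 genes listed for cell death, 4 rose and 1 fell. Dram1 rose by 0.65 (SE 0.1, edgeR adjusted p = 0.000557), from 8.31 ± 1.01 CPM (SD, n = 5) to 13.1 ± 1.61 CPM (SD, n = 6), and Pmaip1, the death protein Noxa, by 0.54 (SE 0.102, edgeR adjusted p = 0.00216). Apaf1 and Fas rose too, and Ei24 fell by 0.10 (SE 0.0316, edgeR adjusted p = 0.0322). Gdf15, a secreted stress cytokine, rose by 0.88 (SE 0.227, edgeR adjusted p = 0.0136), from 0.476 ± 0.178 CPM (SD, n = 5) to 0.872 ± 0.182 CPM (SD, n = 6). Among the arrest genes Cdkn1a fell by 0.15 (SE 0.039, edgeR adjusted p = 0.0136) and the other 8 of the 9 were not called. Sesn1 fell by 0.23 (SE 0.0651, edgeR adjusted p = 0.0229), the repair gene Pcna rose, and none of the 4 feedback genes or of the 7 upstream genes, the kinases and p53 relatives, was called. With all 6 groups in a single fit 4 of the 46 were called (Apaf1, Dram1, Fas and Pmaip1). Sesn1 lost its call without middle-aged replicate 2, 3 or 5, and Ei24 without middle-aged replicate 5 or untreated old replicate 2, 3 or 5. The rise of the lymphocyte markers given above ran beside these changes, and the proliferation markers went from a median of 11.2 to 39.0 CPM, with 4 of the 5 above every middle-aged bladder. Their part in these values was not tested.

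Between young and untreated old bladders 9 of the 45 tested were called, 8 higher and 1 lower (25.1% of all genes). Ckap2 fell by 1.28 (SE 0.353, edgeR adjusted p = 0.0169). Ephx1 rose by 0.47 (SE 0.14, edgeR adjusted p = 0.0254), Cd82 by 0.43 (SE 0.0823, edgeR adjusted p = 0.0018) and Atm, the kinase that signals DNA breaks to p53, by 0.38 (SE 0.105, edgeR adjusted p = 0.0183). Ephx1 lost this call without young replicate 6 or untreated old replicate 2 or 4. In D + Q-treated bladders none of the 46 was called against untreated old or vehicle-treated bladders, with 9 and 1 at an unadjusted p under 0.05. DESeq2 called 1 of them, Dram1, against untreated old bladders and none against vehicle-treated bladders. The median log2 fold change of the 46 was 0.0099 and -0.0037 in these comparisons, and that of all genes tested was 0.002 and -0.0027.

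**Figure D4:**
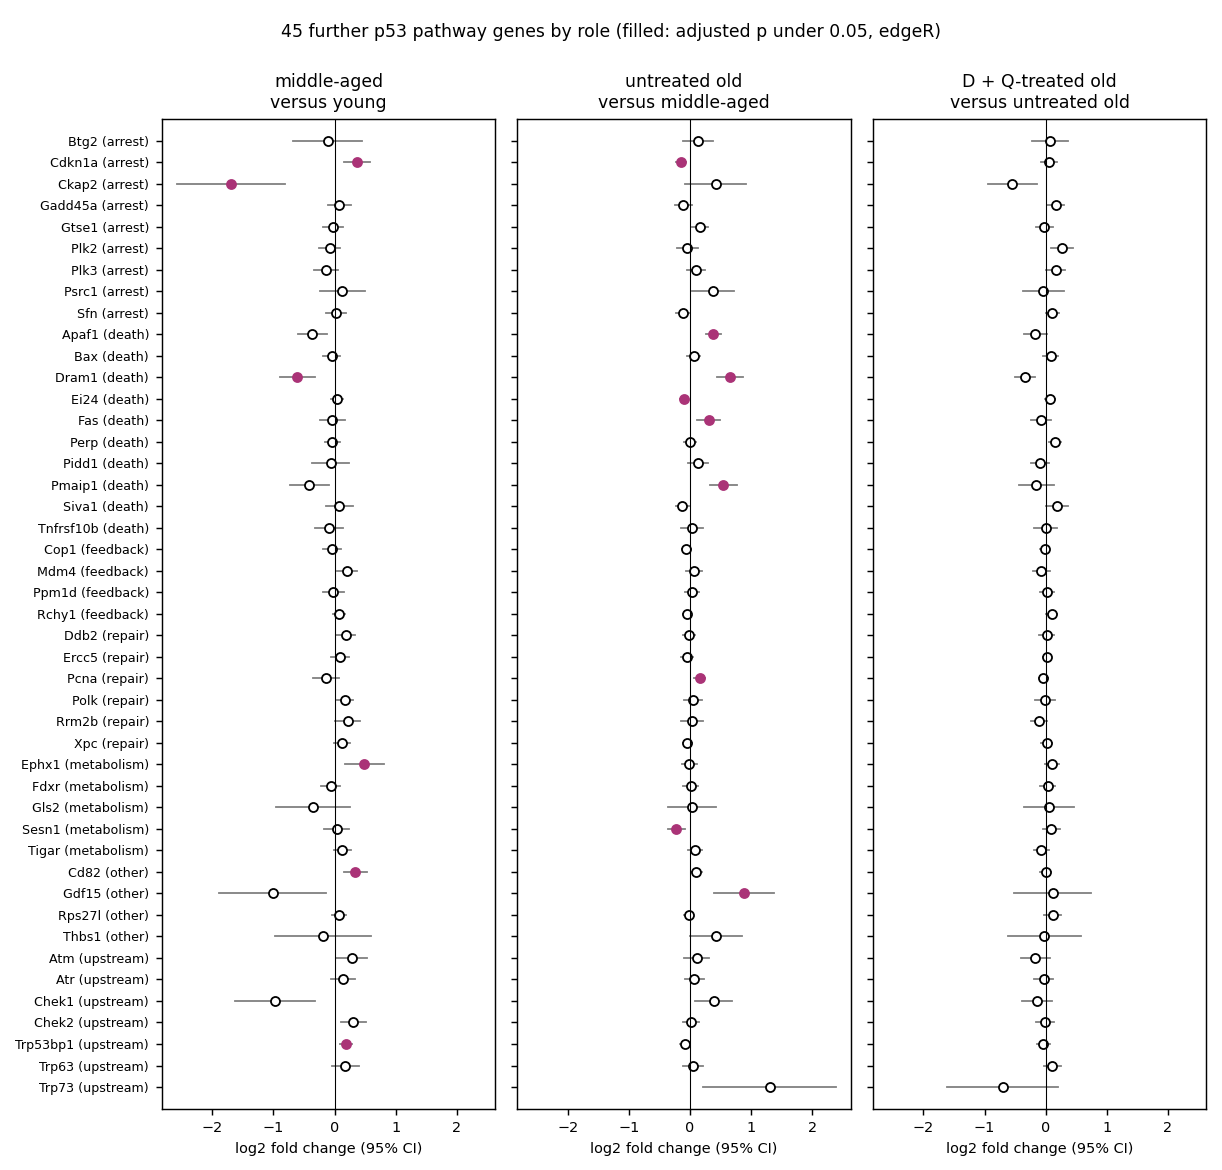
log2 fold change (x axis) of 45 of the 46 further pathway genes (y axis, role in brackets) in 3 comparisons, with 95% confidence intervals and filled points for an edgeR adjusted p under 0.05. There are 6 filled points for middle-aged against young, 9 for untreated old against middle-aged and 0 where D + Q was set against no treatment, and Trp73 was not tested in the first.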

How the data were processed

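The count table was made by the authors, who aligned the reads to mm10 with STAR 2.7.3 and counted them per gene with featureCounts (Subread, version not given in the sources used here). The deposited counts carry no normalization. The strandedness of counting is not given in the sources used here. The authors also deposited a normalised table as log2 values of a length-scaled count plus 1, used here only in an alternative. Of 32285 genes, 32235 had a GENCODE M21 symbol. Sesn2 overlaps Gm12981 on the same strand, so reads there may be shared. The members and lists were chosen with earlier results of these data known.

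Samples were grouped by the labels. Each of the 11 comparisons was a fit of its 2 groups in edgeR 4.0.16 (R 4.3.3) with filterByExpr, TMM factors, the quasi-likelihood test and Benjamini-Hochberg adjustment over all genes tested, and the late minus early change came from a fit of the 3 ages. A gene was called at an adjusted p under 0.05. Confidence intervals (95%) came from the same fits. CPM used TMM factors over all 6 groups, and TPM was computed from the counts. Named genes were the 10 members and, of the 46 further genes, the 4 largest rises and falls among those called in a comparison, as well as called genes outside that rule that are named without values. From these, 1 gene is not reported here and is not plotted, though the counts include it. Correlations used log2(CPM + 0.1) and two-sided permutation within groups. Whether separate mice gave every bladder of a group is as labelled, and the p-values measure the spread between these bladders. Depth was 15088372 to 52650259 counts per bladder.

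DESeq2 1.42.0, RLE factors, no filter, limma 3.58.1 with trend (deposited table), a joint fit of the 6 groups, replicate numbers as a block and omission of single bladders (135 fits) were the alternatives. The correlations without vehicle-treated replicate 1 were added after seeing the data. Fits were first tested on simulated data. Tables and plots were made in Python 3.11.15 with pandas 2.3.3, scipy 1.17.1 and matplotlib 3.10.9.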

Additional observations from a re-analysis of the deposited data

Results flagged for a closer look

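The CPM values of each of the 10 genes were examined in each of the 6 groups (60 sets of 4 to 6 bladders) for a highest or lowest bladder far from the others, by Dixon's ratio of the gap to the range, which chance passes in about 1 of 20 sets. There were 2 such values, and both were the lowest of the water-treated bladders and came from replicate 3. Its Bbc3 level was 6.22 CPM while the other 4 bladders had 8.64 to 8.88 CPM (ratio 0.912). Its Trp53 level was 68.1 CPM while the other 4 had 74.5 to 76.3 CPM (ratio 0.781). On the first principal component it lay at 0.169 and the other 4 at 15.0 to 44.2, and its B cell markers summed to 34.7 CPM and those of the other 4 to 55.2 to 310 CPM. The part of these differences in the 2 values was not tested. Without it, Bbc3 was the 1 member called in water-treated against middle-aged bladders. Of the 10 fits that each left out 1 bladder, only this 1 called Bbc3. The bladder was flagged for its low Bbc3 value, so its omission had to raise the group, and the call is no separate support. The share of all genes called was not computed for this fit.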

How the results depend on the processing

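With DESeq2 and with RLE factors the number of called members was the same in every comparison as that reported. In water-treated against untreated old bladders the count fell from 1 to 0 with no filter, with all 6 groups in a single fit, with limma on the deposited table and with the replicate block. Of all genes, 99 of 25683 were called there with no filter and 0 in each of the other fits. With all 6 groups in a single fit, 1 member was called from young to middle-aged bladders and 0 from middle age to untreated old age, and limma on the deposited table also called 0 in the latter. The single fit called 2858 and 2519 of all 18093 genes in these comparisons, and limma 4071 of 17156 in the latter. Deviations of same-numbered bladders from their group means had a median r of -0.049 to 0.0771 across the comparisons. By the numbers of the descriptions the median was -0.0588 to 0.0938, and single pairs ranged from -0.296 to 0.219. Differently numbered bladders were not compared, so a pairing by number was neither shown nor excluded. The replicate block called 2 members in D + Q-treated against middle-aged bladders (Eda2r and Trp53inp1), beside 1864 of 16992 genes tested. With the numbers of the descriptions as the replicate block, 3 members were called in untreated old against middle-aged bladders (Ccng1, Eda2r and Trp53inp1), 1 in water-treated against middle-aged bladders (Bbc3) and 0 in water-treated against untreated old bladders. Of all genes, that block called 3396 of 17156, 2241 of 17023 and 0 of 17250 in these comparisons. The cause was not tested.

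Of the further genes, the number called from young to middle-aged bladders was 10 with DESeq2 and with all groups in a single fit and 1 with the replicate block. Over all genes it was 2672 of 16754 with DESeq2, 2858 of 18093 in the single fit and 716 of 16754 with the block. In untreated old against middle-aged bladders 4 of the further genes were called with all groups in a single fit and 5 with the replicate block, beside 2519 of 18093 and 3036 of 17156 genes. Between young and untreated old bladders the number was 14 with all groups in a single fit and with either replicate block and 5 with limma. Over all genes it was 5073 of 18093 in the single fit, 4024 of 16873 with either block and 3854 of 16873 with limma. DESeq2 called 1 where D + Q was set against no treatment in old mice, beside 185 of 17037 genes tested. Pairs of members that passed both tests numbered 4, then 2 in the untreated bladders of the 3 ages and 1 without vehicle-treated replicate 1.

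When single bladders were left out, the number of called members ranged from 0 to 2 in untreated old against middle-aged, from 1 to 2 in untreated old against young, from 0 to 1 in water-treated and in D + Q-treated against middle-aged bladders, and was 0 throughout in water-treated against untreated old bladders. The further genes called from young to middle-aged bladders numbered 1 to 10. The share of all genes called was not computed for the fits without a bladder.

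None of the log2 fold changes that turned their sign was called, with either sign. With limma they were -0.0105 (Trp53, untreated old against middle-aged, median of all genes in that table -0.0519) and -0.0264 (Sesn2, untreated old against young, median -0.0258). For Eda2r they were -0.051 (vehicle-treated against untreated old, median -0.0255) and 0.0693 (D + Q-treated against vehicle-treated, median -0.0050). For D + Q-treated against untreated old bladders Trp53 had -0.0247 (median -0.0273). For Ccng1 against middle-aged bladders they were -0.0569 in vehicle-treated (median -0.0732) and -0.0109 in D + Q-treated bladders (median -0.0694). With the replicate block they were -0.0327 (Eda2r, late minus early), -0.0619 (Eda2r, vehicle-treated against untreated old), 0.19 (Eda2r) and 0.0042 (Aen, both D + Q-treated against vehicle-treated). With the numbers of the descriptions as the replicate block they were 0.0264 (Aen, middle-aged against young), -0.18 (Eda2r, vehicle-treated against untreated old) and 0.11 (Eda2r, D + Q-treated against vehicle-treated). Leaving out single bladders gave ranges that crossed 0 for 20 values. They were -0.0065 to 0.0803 (Phlda3), -0.0585 to 0.0134 (Zmat3) and -0.0757 to 0.03 (Aen) in middle-aged against young, -0.0718 to 0.0108 (Phlda3) and -0.0302 to 0.0327 (Sesn2) in untreated old against young, and -0.0089 to 0.44 (Trp53inp1) and -0.0464 to 0.18 (Eda2r) in late minus early. Against untreated old bladders they were -0.27 to 0.30 (Eda2r, vehicle-treated) and, for D + Q-treated bladders, -0.0165 to 0.0239 (Trp53), -0.0413 to 0.0052 (Mdm2), -0.0434 to 0.11 (Eda2r), -0.21 to 0.0149 (Trp53inp1) and -0.0616 to 0.0214 (Bbc3). In D + Q-treated against vehicle-treated bladders they were -0.0209 to 0.03 (Mdm2), -0.28 to 0.31 (Eda2r), -0.0507 to 0.0745 (Phlda3), -0.0217 to 0.0417 (Zmat3), -0.03 to 0.23 (Trp53inp1) and -0.0746 to 0.0061 (Sesn2), and in vehicle-treated against middle-aged bladders -0.0246 to 0.0575 (Ccng1). Of the other single values, 28 lost and 8 gained their call under a setting that kept every bladder, with the direction kept.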
